A study of Mus musculus with 35 samples.

Results

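The comparison described here set 4 libraries of memory CD8 T cells from spleen against 3 libraries of CD8 single positive cells from thymus, all from mice with a wild-type Dot1l gene. It used 7 of the 35 RNA-seq libraries of the series, chosen by their labels, and took in every gene with enough counts. The mice were C57BL/6. The WT groups carried Lcre+/-;Dot1Lwt/wt, so every animal, controls included, had the Cre transgene, which the labels name only as Lcre. Memory cells were sorted as CD44+ CD62L+ from spleen, and thymic cells as CD8 SP. For context, values are also given for 4 WT libraries of naive spleen cells (CD44- CD62L+), and the comparison was repeated in mice with 1 floxed copy of Dot1l (Lcre+/-;Dot1Lfl/wt, called Het, 4 memory and 4 thymus libraries) and in mice with both copies floxed (Lcre+/-;Dot1Lfl/fl, called KO, again 4 and 4). The labels give no age, and nothing in them ties a replicate to an animal of its own. The tests therefore weigh each difference against the scatter within groups, estimated over all 35 libraries of the series, Het and KO included. Part of that scatter may be technical. DOT1L, the product of Dot1l, methylates lysine 79 of histone H3.

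CD8 T cells are made in the thymus. Precursors rearrange their receptor genes, divide, are tested for receptor affinity, and as single positive cells lower their thymic retention genes and acquire KLF2 and its target S1PR1, the sphingosine-1-phosphate receptor through which they leave for the blood. In the spleen and lymph nodes naive cells recirculate in a resting state held by factors such as TCF7, LEF1, SATB1 and FOXP1. Memory cells that keep CD62L also recirculate, respond to the cytokines IL-7 and IL-15, and carry the T-box factors T-bet (Tbx21) and EOMES, chemokine receptors for inflamed tissue, and a store of effector genes. The contrast therefore spans differentiation and a change of organ at the same time, and these cannot be told apart with spleen memory and thymus alone.

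The 7 libraries held 7492258 to 16228232 counts each. CD8 T cell genes were present in every library, with a summed level of 1690 to 1848 CPM (a gene's counts scaled to a common library size by TMM) in memory and 1754 to 2012 CPM in thymus over 14 genes. Cd4 had 0 counts over the memory libraries and 3 over the thymus libraries. It had at most 2 counts in any library of the series, too few to read as presence or absence of CD4 cells. Markers of other cells did move with the groups. The summed level of 20 B cell genes was 222, 201, 275 and 398 CPM in memory libraries 1 to 4, against 103, 82.5 and 93.7 CPM in thymus libraries 1 to 3. Most of it in either group was Ighm, but Ebf1, Pax5, H2-Ab1 and Cd74 were highest in memory libraries 3 and 4. Naive spleen libraries 1 to 4 had B cell sums of 214, 200, 233 and 350 CPM, so these sums were not particular to memory. The myeloid and dendritic genes summed to 17.2 to 29.0 CPM in memory, 3.46 to 7.19 CPM in naive and 2.41 to 2.93 CPM in thymus. Itgax was the largest part in memory, at 12.3 to 23.2 CPM. Csf1r was called higher in memory at the margin (edgeR adjusted p = 0.0470) and lost the call in 8 of 17 alternatives. Lyz2 had 6 counts in memory and 1 in thymus, and Adgre1 and Cst3 each had 4 in memory and 0 in thymus. S100a8, S100a9, C1qa and Clec9a had 0 counts in both groups, which is not read here as absence of such cells. In the other direction, CD4 and regulatory T cell genes summed to 42.5 to 73.1 CPM in memory and 592 to 777 CPM in thymus, most of it Ikzf2. Erythroid genes summed to 6.04 to 26.3 CPM in memory, 4.45 to 33.3 CPM in naive and 3.14 to 3.45 CPM in thymus. By Xist and Y-linked genes, 2 memory libraries were female and 2 male, and 1 thymus library was female and 2 male. In bulk RNA, fewer cells of a type and less RNA per cell cannot be told apart.

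**Figure D1:**
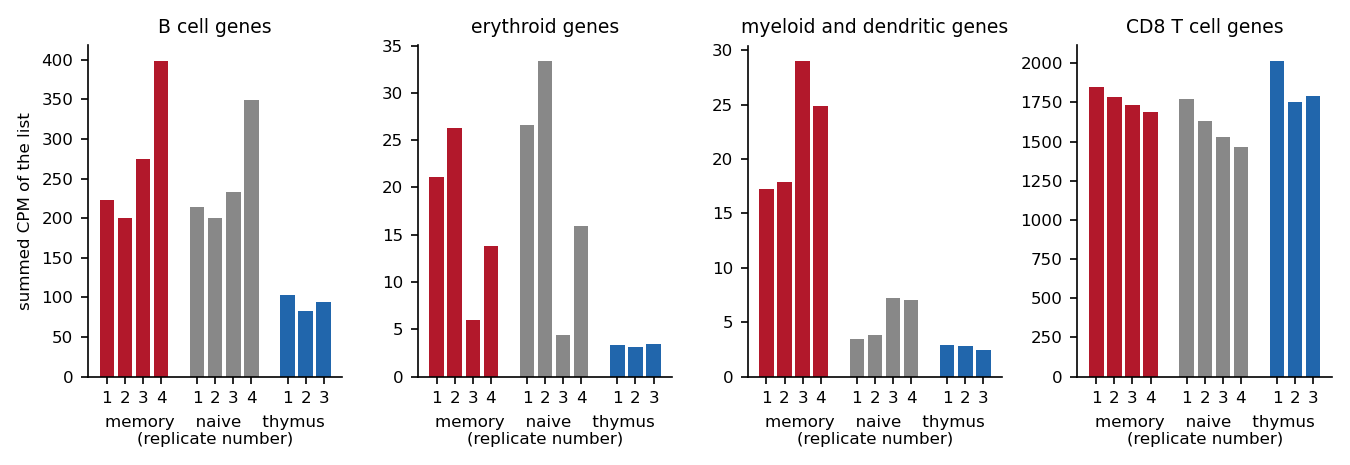
Summed CPM (vertical axes, linear, from 0) of marker genes for B cells, erythroid cells, myeloid and dendritic cells, and CD8 T cells, with a bar for each WT library, grouped as memory, naive and thymus and numbered by replicate. The B cell bars of memory libraries 3 and 4 reach 275 and 398 CPM and the thymus bars stay between 82.5 and 103 CPM, while the CD8 T cell bars of memory and thymus lie between 1690 and 2012 CPM. The B cell bars of naive libraries lie between 200 and 350 CPM.

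Some transcripts that define CD8 T cells had few counts. Cd8a had 8.00, 7.85, 6.15 and 11.2 CPM in memory and 9.19, 9.88 and 10.9 CPM in thymus. Lck, which encodes the kinase bound to the CD8 tail, had 981 to 1120 CPM in memory and 937 to 1104 CPM in thymus. Among protein-coding genes the share with enough counts to be tested was 7.0% for genes with up to 1000 bases of exon and 63.8% for genes with more than 4000, so genes with short transcripts are less often covered by the tests.

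Of 10296 genes tested, 4078 (39.6%) passed edgeR's quasi-likelihood test at an adjusted p of 0.05, 1991 (19.3%) higher and 2087 (20.3%) lower in memory than in thymus. Of all 10296 tested genes, 1591 (15.5%) were called with a log2 fold change of at least 1 in size, 725 higher (7.04%) and 866 lower (8.41%). The median log2 fold change over all tested genes was 0.02. The 7 library values did not overlap for 4710 genes (45.7%), of which 3806 were also called. Every count below is to be read against these shares. A gene that is high in a single group can pass the filter on low counts through that group, so counts over tested list members describe those members and support no wider statement.

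**Figure D2:**
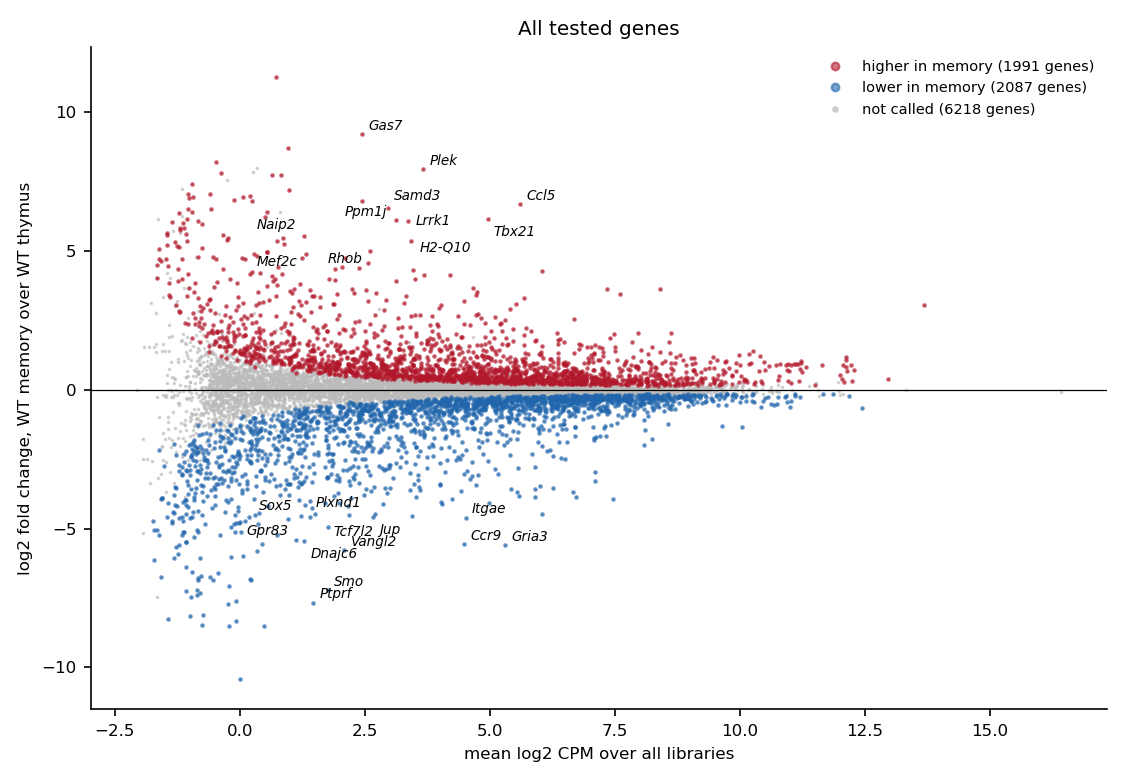
Log2 fold change of WT memory over WT thymus (vertical axis) against the mean log2 CPM over all libraries (horizontal axis), with a point for each of the 10296 tested genes. The 1991 genes called higher in memory lie above 0 and the 2087 called lower lie below, and the named genes of largest change among those averaging 1 or more on the log2 CPM axis, whose groups do not overlap, are labelled, from Gas7 at 9.20 to Ptprf at -7.66.

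Both T-box factor genes of CD8 memory were higher in memory than in thymus. Tbx21, the gene of T-bet (ENSMUSG00000001444, chromosome 11, 97098071 to 97115331, minus strand, GRCm38), had 147, 180, 189 and 138 CPM in memory libraries 1 to 4, against 3.46, 1.74 and 2.24 CPM in thymus libraries 1 to 3. The groups were far apart, and the log2 fold change was 6.14 ± 0.38 (SE; edgeR adjusted p = 1.43e-13). Eomes, the related T-box gene (chromosome 9, 118478212 to 118486132, plus strand), had 176, 189, 193 and 166 CPM in memory and 10.9, 6.63 and 11.3 CPM in thymus. The log2 fold change of Eomes was 4.28 ± 0.22 (edgeR adjusted p = 1.30e-15), and the groups did not overlap.

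The 12 highest genes by the rule for named genes spanned log2 fold changes of 4.90 to 9.20. Gas7 (chromosome 11, 67455437 to 67688990, plus strand), which encodes an actin-binding adaptor, had 59.0, 75.8, 74.7 and 80.5 CPM in memory. In thymus it had 0.533 CPM in library 1 and no counts in libraries 2 and 3. Its log2 fold change of 9.20 ± 0.97 therefore rested on a near-empty group, and was 12.60 without thymus library 1 and 8.35 without thymus library 2. Plek, the gene of pleckstrin, a substrate of protein kinase C that binds phosphoinositides, had 115, 139, 169 and 131 CPM in memory against 0.399, 0.523 and 0.690 CPM in thymus (log2 fold change 7.94 ± 0.81, edgeR adjusted p = 5.39e-09). Both genes were close to 0 in thymus and abundant in all 4 memory libraries.

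The other genes at the top had the same form. Ccl5, the gene of the chemokine RANTES, had 305, 337, 378 and 280 CPM in memory and 4.39, 2.56 and 2.93 CPM in thymus. Its log2 fold change was 6.70 ± 0.67. Samd3 (log2 fold change 6.55 ± 0.60), the phosphatase gene Ppm1j (6.11 ± 0.44), the kinase gene Lrrk1 (6.09 ± 0.59), the inflammasome gene Naip2 (5.56 ± 0.44), the class I gene H2-Q10 (5.38 ± 0.44) and the small GTPase gene Rhob (5.02 ± 0.45) followed. Ppm1j reached 6.79 without thymus library 2. Naip2 and H2-Q10 belong to families of near-identical genes among which the counting could have split reads, so their values are uncertain. Mef2c, the lowest of these genes, did not share this form. It had 1.09, 0.739, 6.80 and 22.3 CPM in memory libraries 1 to 4, high in the libraries with the highest B cell sums, against 0.266, 0.291 and 0.172 CPM in thymus. Its log2 fold change of 4.90 ± 1.73 (edgeR adjusted p = 0.0247) fell to 3.39 without memory library 4 (adjusted p = 0.168) and to 1.85 without memory libraries 3 and 4 (adjusted p = 0.598), and the adjusted p was 0.0569, 0.0861 and 0.0792 without thymus libraries 1, 2 and 3.

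Among transcription factors of memory and effector cells, 11 of 20 tested genes rose and 6 fell, out of 24 listed, with a median log2 fold change of 0.35. Hopx, a small homeodomain protein of differentiated T cells, had 13.3, 15.4, 13.7 and 13 CPM in memory and 0.799, 0.581 and 0.604 CPM in thymus (log2 fold change 4.42 ± 0.31). Stat4, which carries IL-12 signals, had 108, 114, 98.2 and 110 CPM in memory and 27.4, 22 and 25.8 CPM in thymus (2.11 ± 0.12). Klf6 rose by 1.80 ± 0.13 on the log2 scale. The factors that fell included Bach2, a repressor that holds back effector genes, with 70.1, 54.9, 60.6 and 58.4 CPM in memory and 97.9, 110 and 108 CPM in thymus, and Id2, with 113, 86.8, 109 and 83.9 CPM in memory and 210, 134 and 196 CPM in thymus. Id2 fell by 0.87 on the log2 scale and Id3 by 1.02. These inhibitors of E proteins, often paired as markers of effector and memory fates, were thus both lower in memory than in thymus. Zeb2, a factor of effector cells, had 10.6, 4.80, 9.44 and 10.2 CPM in memory and 3.86, 3.78 and 1.90 CPM in thymus, a log2 fold change of 1.47 ± 0.50 (edgeR adjusted p = 0.0207). The call of Zeb2 was lost in 4 of 17 alternatives, including without thymus library 3 (1.19, edgeR adjusted p = 0.109) and without memory library 1 (1.35, edgeR adjusted p = 0.0514). Bhlhe40, a factor of tissue and effector T cells, had 4.5, 3.88, 3.95 and 3.32 CPM in memory and 4.13, 4.01 and 5.09 CPM in thymus, and did not pass the test (edgeR adjusted p = 0.650).

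The lineage factors of CD8 and CD4 cells, 26 tested of 28 listed, included 6 that rose and 10 that fell. Runx2 had 514, 660, 603 and 576 CPM in memory against 52.5, 54.5 and 56.0 CPM in thymus, and its log2 fold change was 3.44 ± 0.23 (edgeR adjusted p = 1.36e-12). Runx3, the factor that sets the CD8 fate, was called at the margin (0.39 ± 0.16, edgeR adjusted p = 0.0465), and lost the call in 12 of 17 alternatives, including without each of thymus libraries 1, 2 and 3 (0.34, 0.41 and 0.40) and without each of memory libraries 2, 3 and 4 (0.34, 0.40 and 0.36). Gata3 rose by 1.13 ± 0.10, with 96.1, 117, 121 and 110 CPM in memory and 49.4, 46.8 and 56.6 CPM in thymus. Zbtb7b, which encodes ThPOK, the factor that directs the CD4 fate, had 5.59, 4.89, 5.82 and 5.92 CPM in memory and 0, 0.0581 and 0.431 CPM in thymus. The change of Zbtb7b was 4.97 ± 0.79, or 4.37 without thymus library 2 and 6.73 without thymus library 3. Cd4 had 0 counts in the same memory libraries, but at most 2 in any library of the series, so it does not bear on CD4 cells. Ikzf2, the gene of HELIOS, went the other way, with 51.5, 33.5, 35.1 and 58.6 CPM in memory and 577, 764 and 703 CPM in thymus (log2 fold change -3.93 ± 0.25). Other genes of regulatory T cells moved with it: Foxp3 had 0.544, 0.185, 0.329 and 0.179 CPM in memory and 0.799, 1.22 and 1.47 CPM in thymus, and Izumo1r fell by 2.16 ± 0.25. Ctla4 did not pass the test, and the part of such cells in the fall of Ikzf2 was not tested. Tox, needed for the selection of T cell lineages in the thymus, fell by 1.81 ± 0.09.

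Genes of migration changed in both directions. Of 26 tested genes of egress and homing, out of 30 listed, 17 rose and 8 fell (median log2 fold change 0.71). Cd44 encodes CD44, by which the memory cells were sorted, so it checks the sort and is no finding. Cd44 had 25.0, 25.8, 31.4 and 31.4 CPM in memory and 2.93, 2.73 and 3.36 CPM in thymus. Klf2 had 69.2, 56.9, 56.0 and 58.6 CPM in memory and 31.7, 29.1 and 35.2 CPM in thymus. S1pr1, its target and the receptor for exit, had 560, 591, 509 and 542 CPM in memory and 344, 330 and 343 CPM in thymus. Both rose with no overlap of libraries, by 0.92 ± 0.14 and 0.70 ± 0.09 on the log2 scale.

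Receptors for inflamed tissue rose as well. Cxcr3, the receptor for interferon-induced chemokines, had 7.92, 7.76, 7.90 and 9.59 CPM in memory, while thymus held 1 count in all, in library 2. The ratio of pooled levels was 301 (95% interval 53.8 to 11937, counting error only). Without thymus library 2 its log2 fold change was 9.43, against 7.73 ± 0.55 with all libraries. Ccr2 had 2.95, 4.25, 7.90 and 4.84 CPM in memory and again 1 thymus count. Gpr183, which guides cells along oxysterol gradients, rose by 2.67 ± 0.18, and Klf3 by 1.85 ± 0.15. Itgb1, the beta chain of VLA integrins, had 355, 294, 377 and 333 CPM in memory and 84.8, 73.8 and 93.5 CPM in thymus (log2 fold change 2.02 ± 0.24). Its partner Itga4 had 59.2, 34.5, 41.7 and 49.5 CPM in memory and 57.9, 74.6 and 54.1 CPM in thymus, values that overlap. Itga4 was called lower at the margin (-0.43 ± 0.17, edgeR adjusted p = 0.0475). It lost the call in 9 of 17 alternatives, including without thymus library 2 (-0.27), memory library 2 (-0.31), memory library 3 (-0.38) or memory library 4 (-0.46).

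The homing genes that fell were Ccr9, Itgae, Plxnd1, Ccr4, Itgb3, Itgb7, Ccr7 and, at the margin, Itga4. Ccr9, the receptor for the thymic and intestinal chemokine CCL25, had 3.81, 2.22, 3.29 and 2.51 CPM in memory against 139, 131 and 152 CPM in thymus. Itgae, which encodes CD103, the integrin chain that binds E-cadherin on epithelium, had 4.89, 3.32, 4.5 and 4.03 CPM in memory against 111, 95 and 100 CPM in thymus. Their log2 fold changes were -5.56 ± 0.25 and -4.60 ± 0.17 (edgeR adjusted p = 3.64e-17 and 1.72e-22), and naive spleen cells lay between, at 55.7 ± 5.17 and 41.3 ± 6.41 CPM (SD, n = 4). Plxnd1, a semaphorin receptor that acts in thymocyte migration, had 1.09, 0.369, 0.219 and 1.25 CPM in memory and 16.1, 20.7 and 18.9 CPM in thymus (-4.59 ± 0.31). Ccr4, a receptor for chemokines of skin and thymus, had 0.155, 0.277, 0.329 and 0.179 CPM in memory and 1.46, 2.62 and 2.24 CPM in thymus (-3.18 ± 0.45). The integrin beta chains Itgb3 and Itgb7 fell by 0.85 ± 0.15 and 0.26 ± 0.08. Ccr7, the receptor for lymph node chemokines, fell by a smaller step of 0.37 on the log2 scale, with 92.4, 85.3, 77.7 and 83.8 CPM in memory and 112, 100 and 118 CPM in thymus.

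**Figure D3:**
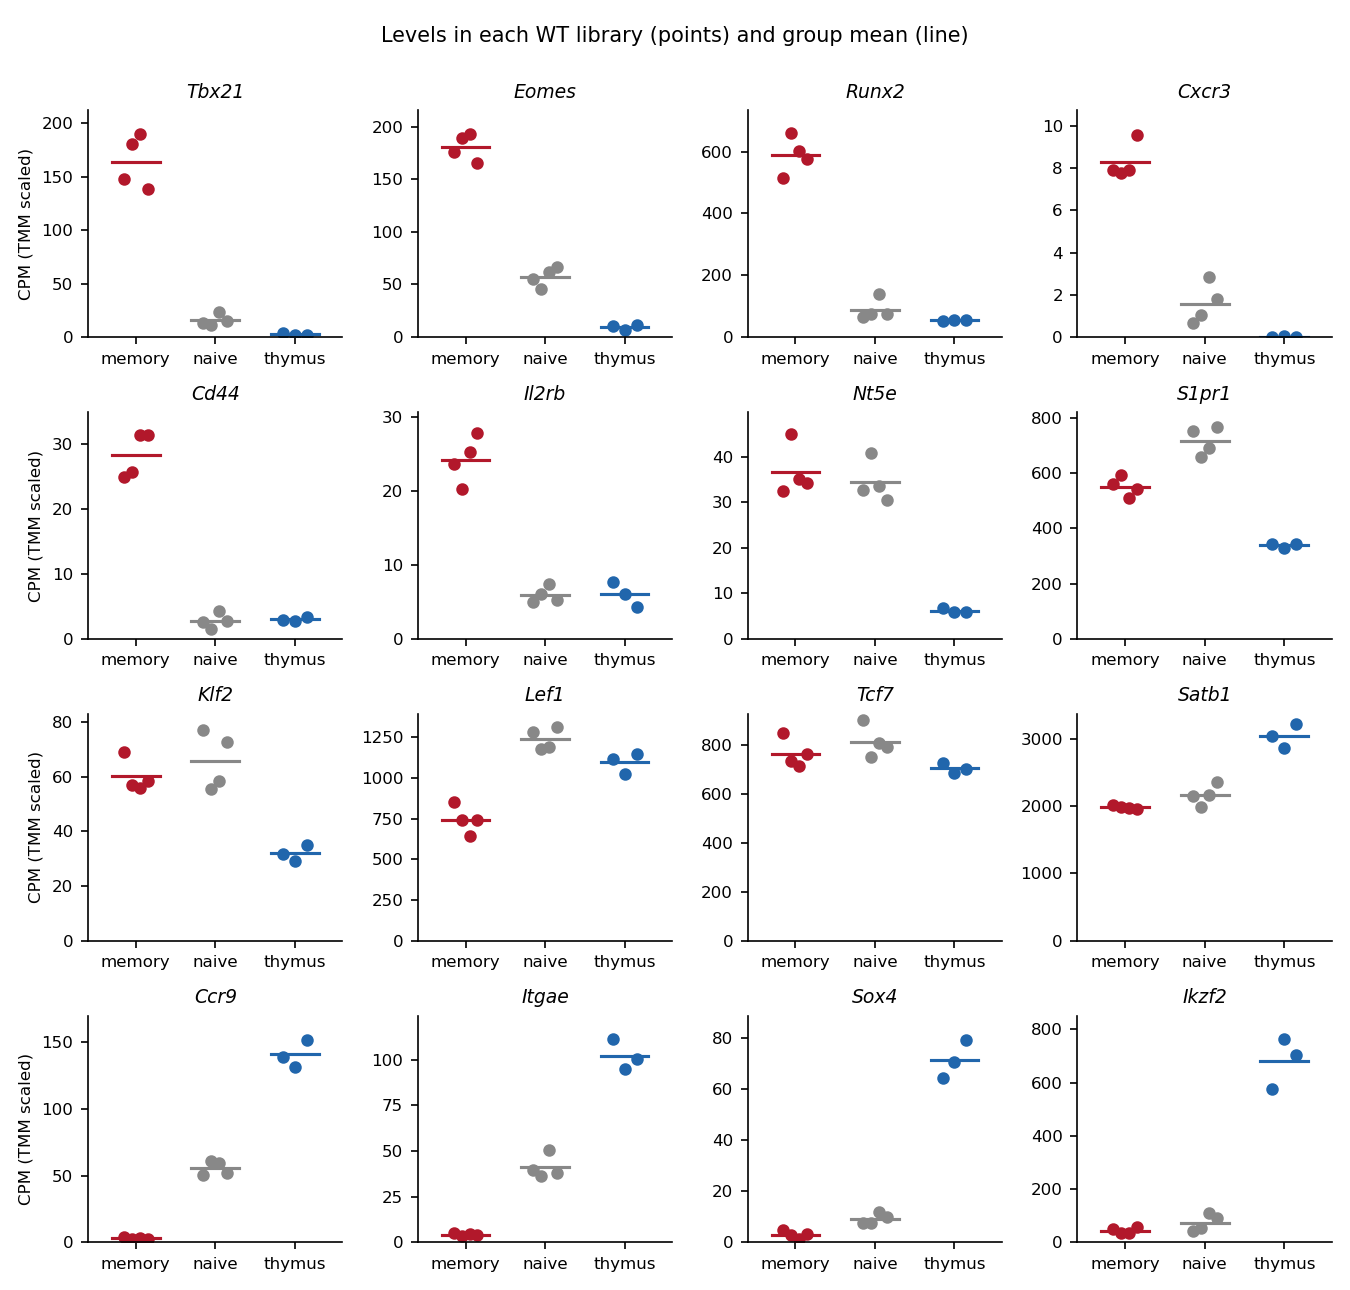
TMM-scaled CPM (vertical axes, linear, from 0) of 16 genes in each WT library, with memory, naive and thymus from left to right, a point per library and a line at the group mean. Tbx21, Runx2 and Cd44 are high in memory with naive and thymus low, Nt5e, S1pr1 and Klf2 are lowest in thymus, Tcf7 overlaps between memory and thymus, and Ccr9, Itgae, Sox4 and Ikzf2 are highest in thymus.

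Cytokine receptors rose more often than they fell. Of 21 tested members of 27, 9 rose and 3 fell (median 0.16). Il2rb, the chain that IL-2 and IL-15 receptors share, had 23.6, 20.3, 25.2 and 27.9 CPM in memory and 7.72, 6.04 and 4.31 CPM in thymus (log2 fold change 2.03 ± 0.20). Il7r had 5.51, 5.54, 4.5 and 8.96 CPM in memory and 1.73, 1.34 and 1.12 CPM in thymus (2.17 ± 0.35). Both chains of the IL-18 receptor rose. Il18r1 had 2.41, 4.16, 4.17 and 4.84 CPM in memory and 0.133, 0.0581 and 0.172 CPM in thymus (4.98 ± 0.49). Il18rap had 5.90, 8.31, 9.44 and 9.59 CPM in memory and 1 count in thymus, in library 2, a pooled ratio of 296 (95% interval 52.9 to 11741). The log2 fold change was 7.73 ± 0.62, and 9.43 without thymus library 2. Among those that fell was Tgfbr3, the TGF-beta co-receptor betaglycan, with 5.67, 2.12, 3.40 and 4.03 CPM in memory and 17.7, 14.4 and 14.6 CPM in thymus.

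Of the cytotoxic and effector products, 26 were listed, 11 had enough counts, and 9 of those rose and none fell (median 1.36). Besides Ccl5, Cst7, which encodes cystatin F, an inhibitor of granzyme-activating proteases, had 2.72, 2.12, 2.85 and 2.69 CPM in memory and 0.133, 0.232 and 0.431 CPM in thymus (log2 fold change 3.18 ± 0.43). Nkg7, a protein of cytotoxic granules, had 6.21, 5.17, 6.69 and 7.08 CPM in memory and 2.66, 2.32 and 2.41 CPM in thymus (1.36 ± 0.24). Fasl, the death ligand, had 77 counts over the memory libraries and 2 over the thymus libraries, both in library 1, a pooled ratio of 31.8 (95% interval 8.51 to 267). Its log2 fold change was 4.71 ± 0.84, and 7.25 without thymus library 1 and 3.91 without thymus library 2. Gzma, Gzmb and Gzmk had 0 counts in both groups and Ifng had 2 in memory and 0 in thymus, so no statement on granzymes A, B and K or interferon gamma can be made here. Gzmm had 17 counts in memory and none in thymus, at least 4.68-fold higher against a floor of 3 counts over the thymus group. Of 29 natural killer receptor genes, 2 had enough counts. Klrk1, the gene of NKG2D, rose, with 111 counts in memory and 3 in thymus, a pooled ratio of 30.6 (95% interval 10.2 to 150), and Cd160 did not pass the test.

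Of the S100, annexin and galectin genes, including AHNAK and vimentin, 20 of 23 were tested, 10 rose and 3 fell (median 0.32). Ahnak, a giant scaffold protein of the cell cortex, had 27558, 31011, 29812 and 28532 CPM in memory and 3504, 3732 and 3356 CPM in thymus. This was a log2 fold change of 3.05 ± 0.17 with no overlap. S100a6, a calcium-binding protein of activated cells, had 29.8, 38.3, 58.9 and 34.7 CPM in memory and 0.932, 2.85 and 1.64 CPM in thymus (4.32 ± 0.44). Vim, the gene of vimentin, moved against the list, with 1564, 1601, 1727 and 1675 CPM in memory and 2249, 2377 and 2406 CPM in thymus (-0.51 ± 0.08). In the cytoskeleton list all 35 genes were tested, 15 rose and 4 fell (median 0.08). Myo1f, a myosin of haematopoietic cells, had 378, 376, 392 and 355 CPM in memory and 33.3, 31.9 and 26.0 CPM in thymus (3.63 ± 0.14, edgeR adjusted p = 1.16e-19). The Rac activator Dock2 rose by 0.81 ± 0.06, with 3104 to 3278 CPM in memory and 1770 to 1896 CPM in thymus.

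Of the glycosyltransferases, which build the sugars that selectins and galectins read, 26 of 32 were tested, 9 rose and 4 fell (median 0.27), and 5 rose without thymus library 2. St3gal6, a sialyltransferase of selectin ligands, had 91.5, 98.4, 95.5 and 91.9 CPM in memory and 22.5, 18.0 and 21.5 CPM in thymus (log2 fold change 2.20 ± 0.16). St3gal4 rose by 1.16 ± 0.15 and B4galt1 by 0.60 ± 0.07. St8sia1, which makes the ganglioside GD3, had 55.7, 55.7, 51.8 and 52.2 CPM in memory and 138, 164 and 141 CPM in thymus (-1.46 ± 0.11).

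The lowest genes in memory included several surface receptors. Ptprf, a receptor tyrosine phosphatase (ENSMUSG00000033295, chromosome 4, 118208213 to 118291405, minus strand), had 0.311, 0.185, 0.110 and 0 CPM in memory and 34.4, 33.9 and 35.5 CPM in thymus. This was a log2 fold change of -7.66 ± 0.30 (edgeR adjusted p = 2.94e-23), and -8.32 without memory library 1. Smo, the signal transducer of hedgehog ligands, which act in early thymocytes, had 0.233, 0.185, 0 and 0.448 CPM in memory and 33.7, 36.2 and 36.2 CPM in thymus (-7.21 ± 0.39). Vangl2, a planar cell polarity protein, had 0.466, 0.0923, 0.329 and 1.34 CPM in memory and 26.6, 34.1 and 33.5 CPM in thymus (-5.77 ± 0.39, or -6.64 without memory library 4). These 3 genes had similar and steady levels in the thymus libraries and next to none in memory.

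Gria3, a glutamate receptor subunit on chromosome X, had 8.00, 1.75, 1.43 and 3.50 CPM in memory and 190, 194 and 181 CPM in thymus (-5.60 ± 0.31, or -6.36 without memory library 1). Dnajc6 (auxilin, -5.44 ± 0.48), the G protein coupled receptor gene Gpr83 (-5.39 ± 0.43), Tcf7l2 (-4.95 ± 0.37), Jup (plakoglobin, -4.58 ± 0.23) and Sox5 (-4.55 ± 0.39) made up the rest of the 12 with Ccr9, Itgae and Plxnd1. Tcf7l2 encodes a relative of TCF7 and LEF1. Beside it, Lef1 had 851, 742, 645 and 740 CPM in memory and 1115, 1025 and 1150 CPM in thymus (-0.56 ± 0.08), and Tcf7 had 851, 734, 713 and 763 CPM in memory and 728, 685 and 702 CPM in thymus, which did not pass the test (0.12 ± 0.07, edgeR adjusted p = 0.186).

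Of the immature thymocyte genes, 27 were listed, 21 were tested, 13 fell and 1 rose, and the median log2 fold change was -1.38. Rag1, whose product cuts receptor genes, had 3 counts over the memory libraries, 2 of them in library 3, against 12.9, 6.86 and 4.05 CPM in thymus, a pooled ratio of 106 (95% interval 35.8 to 516). Rag1 had a log2 fold change of -6.59 ± 0.78, and -7.58 without memory library 3. Dntt, the enzyme that adds bases at receptor gene junctions, had 0 counts in memory and 91 in thymus, at least 36.7-fold lower in memory against a floor of 3 counts over the memory group. Rag2 had 0 and 17 counts, Ptcra 0 and 2, and Cd24a 0 and 6, too few to test. Sox4, a factor of early thymocytes, had 4.74, 2.77, 1.21 and 3.23 CPM in memory and 64.6, 70.7 and 79.4 CPM in thymus (-4.53 ± 0.25, edgeR adjusted p = 5.18e-16).

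The Notch pathway, which drives commitment to the T lineage, showed no common direction, with 5 of 18 tested genes higher and 4 lower out of 20 (median 0.10). Notch3 had 1 count in memory, in library 4, and 483 in thymus, a pooled ratio of 585 (95% interval 104 to 23150). On the log2 scale Notch3 changed by -8.51 ± 0.60, and -10.06 without memory library 4. Notch1 had 384, 391, 381 and 362 CPM in memory and 456, 547 and 492 CPM in thymus (-0.39 ± 0.10). Maml3, a Notch coactivator, fell by 1.20 ± 0.14, while the feedback target Nrarp, with 2.17, 2.03, 3.29 and 4.39 CPM in memory and 0.133, 0.697 and 0.604 CPM in thymus, and Lfng, which modifies Notch, rose by 2.45 ± 0.36 and 0.70 ± 0.10.

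Proliferation genes were lower in memory throughout. Of 37 listed genes, 33 had enough counts and all 33 fell, with log2 fold changes from -4.0 to -0.69 and a median of -2.64. The genes with the lowest adjusted p were licensing and nucleotide genes. Mcm2, a subunit of the replicative helicase, had 71.9, 68.7, 76.7 and 73.3 CPM in memory and 170, 193 and 189 CPM in thymus (-1.34 ± 0.07, edgeR adjusted p = 7.49e-19). Mcm5 had 19.1, 18.9, 22.9 and 19.0 CPM in memory and 64.6, 80.7 and 76.5 CPM in thymus (-1.89 ± 0.13). Mcm7 and Rrm1, a ribonucleotide reductase subunit, fell by 1.47 ± 0.11 and 1.56 ± 0.11. Top2a, Kif11, Cdk1 and Mki67, chosen after their values were seen, had log2 fold changes of -3.66 ± 0.41, -3.66 ± 0.46, -3.17 ± 0.55 and -3.00 ± 0.45. Top2a, the topoisomerase of dividing cells (chromosome 11, 98992943 to 99024189, minus strand), had 24.5, 29.3, 95 and 59.2 CPM in memory and 487, 770 and 697 CPM in thymus. Memory libraries 3 and 4 were above libraries 1 and 2 for Top2a, and all 4 were far below thymus.

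Many mitotic genes carry a cell cycle homology region (CHR) near their start, through which a repressor complex holds them silent in resting cells. In the 250 bases before the RefSeq start (GRCm38.p6), the letters TTTGAA, or TTCAAA for the other strand, were in 18.3% of 27025 promoters and in 10 of the 25 tested proliferation genes that the RefSeq table holds (40.0%). They were not particular to that list: 8 of 19 tested interferon-stimulated genes (42.1%) held them. Over all tested genes the share was 12.5%, and of promoters of genes called lower and called higher, 15.5% and 9.57% held them. A match is a description of letters and no evidence of binding. The promoters of 3 mitotic genes are printed because the match lies within 25 bases of the start in each; they read 5′ to 3′ on the strand of the gene, end at the base before the start, and show the matches in capitals.
Top2a (chr11:99024190-99024439, minus strand): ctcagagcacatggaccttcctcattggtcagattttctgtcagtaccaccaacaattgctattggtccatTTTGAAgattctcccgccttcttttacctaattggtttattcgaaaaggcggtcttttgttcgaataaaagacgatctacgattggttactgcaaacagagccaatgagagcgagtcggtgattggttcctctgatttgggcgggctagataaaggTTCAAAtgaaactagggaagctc
Cdk1 (chr10:69352913-69353162, minus strand): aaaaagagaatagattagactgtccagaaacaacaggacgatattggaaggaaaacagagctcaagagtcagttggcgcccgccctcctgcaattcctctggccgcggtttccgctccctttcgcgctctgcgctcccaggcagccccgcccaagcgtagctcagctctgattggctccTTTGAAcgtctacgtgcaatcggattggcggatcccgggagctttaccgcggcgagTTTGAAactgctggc
Kif11 (chr19:37376132-37376381, plus strand): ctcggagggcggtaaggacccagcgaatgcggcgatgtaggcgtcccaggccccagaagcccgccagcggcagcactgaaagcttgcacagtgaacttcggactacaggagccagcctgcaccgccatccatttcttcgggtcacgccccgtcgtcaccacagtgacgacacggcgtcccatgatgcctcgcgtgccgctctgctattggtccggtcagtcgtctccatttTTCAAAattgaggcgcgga
In Top2a the match nearest the start begins 23 bases before it, in Cdk1 15 bases and in Kif11 19 bases, and Top2a and Cdk1 hold a second match farther off.

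Chromatin regulators fell more often than they rose. All but 1 of 32 were tested, 15 fell and 5 rose (median -0.34), and 3 rose without thymus library 3. Dnmt3a, a de novo DNA methyltransferase, had 103, 99.6, 102 and 105 CPM in memory and 313, 337 and 331 CPM in thymus (log2 fold change -1.67 ± 0.09, edgeR adjusted p = 2.64e-19). Ezh2, the methyltransferase of lysine 27 of histone H3, had 54.1, 55.7, 69.6 and 67.6 CPM in memory and 203, 247 and 235 CPM in thymus (-1.89 ± 0.12). Tet1, which oxidises methylcytosine, fell by 2.08 ± 0.19. Dot1l itself had 44.8, 52.5, 46.0 and 38.4 CPM in memory and 69.6, 70.4 and 61.1 CPM in thymus, with no overlap (-0.56 ± 0.08). Chd7, a chromatin remodeller, rose by 1.16 ± 0.09.

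Interferon-stimulated genes were lower in memory. Of 34 listed, 26 were tested, 16 fell and 1, Gbp3, rose (median -0.78). Without thymus library 2, 9 fell. Ifit1, an antiviral protein that binds RNA, had 6.52, 5.54, 4.5 and 7.44 CPM in memory and 39.4, 43.4 and 43.4 CPM in thymus (log2 fold change -2.80 ± 0.31, edgeR adjusted p = 2.22e-08). Rsad2, the gene of viperin, had 2.33, 3.60, 2.19 and 1.79 CPM in memory and 10.4, 13.4 and 10.1 CPM in thymus (-2.19 ± 0.30). Irf9, a factor that carries the signal, fell by 0.82 ± 0.09. Interferon induces such genes through a factor complex that includes IRF9 and binds paired GAAA letters. GAAANNGAAA, or TTTCNNTTTC for the other strand, was in 3.46% of all promoters and in 14 of the 19 tested interferon-stimulated genes in the table (73.7%), while promoters called lower and called higher held it in 3.71% and 3.42%. The promoters of the 2 genes described are printed on the same terms, with matches in capitals.
Ifit1 (chr19:34640639-34640888, plus strand): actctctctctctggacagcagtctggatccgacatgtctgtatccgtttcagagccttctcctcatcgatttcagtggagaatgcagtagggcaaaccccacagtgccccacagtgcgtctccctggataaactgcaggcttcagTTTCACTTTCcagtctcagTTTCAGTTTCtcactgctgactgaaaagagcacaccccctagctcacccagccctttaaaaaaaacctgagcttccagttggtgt
Rsad2 (chr12:26456453-26456702, minus strand): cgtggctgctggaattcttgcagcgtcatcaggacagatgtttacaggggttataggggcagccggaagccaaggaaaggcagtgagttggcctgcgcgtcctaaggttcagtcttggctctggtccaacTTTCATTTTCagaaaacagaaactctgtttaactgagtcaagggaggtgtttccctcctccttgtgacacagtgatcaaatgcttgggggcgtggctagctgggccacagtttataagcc
The match of Rsad2 begins 120 bases before the start and those of Ifit1 at 104 and 85 bases.

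Early response genes of the antigen receptor fell more often than they rose. Of 25 tested genes of 27, 10 fell and 2 rose (median -0.02). The 10 that fell included the Nr4a and Egr genes, which follow receptor signal strength. Nr4a1 had 6.99, 7.94, 3.40 and 5.74 CPM in memory and 35.2, 39.5 and 40.2 CPM in thymus (log2 fold change -2.65 ± 0.18). Egr1 had 43.9, 32.4, 25.4 and 40.2 CPM in memory and 183, 147 and 200 CPM in thymus (-2.31 ± 0.22), and Egr2 and Nr4a3 fell by 2.35 ± 0.24 and 1.86 ± 0.17. Jun, an AP-1 gene that many stimuli induce, had 50.4, 5.54, 4.72 and 1.52 CPM in memory, with library 1 far above the rest, and 11.9, 4.18 and 2.16 CPM in thymus, and did not pass the test. Of the 36 genes of the receptor cascade, all tested, 11 rose and 8 fell, with a median of 0.04, and 5 fell without memory libraries 3 and 4. Nfatc2, a calcium-driven factor, had 74.3, 75.7, 73.3 and 72.5 CPM in memory and 34.2, 33.9 and 35.1 CPM in thymus (1.10 ± 0.10), and Malt1, a protease of NF-kB signalling, rose by 1.03 ± 0.09. Rasgrp1 and Sos1, activators of Ras, fell by 0.77 ± 0.07 and 0.90 ± 0.07, and Cd3e, with 234, 192, 195 and 218 CPM in memory and 320, 280 and 309 CPM in thymus, by 0.53 ± 0.08. Cd5, whose level follows receptor affinity in the thymus, had 13, 14.1, 11.7 and 14.9 CPM in memory and 17.2, 14.9 and 14.7 CPM in thymus and did not pass the test (-0.20 ± 0.14, edgeR adjusted p = 0.251).

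Quiescence and naive state genes split. All 23 were tested, 9 rose and 6 fell (median 0.12). Tob1, an antiproliferative gene, had 33.9, 48.0, 43.2 and 46.8 CPM in memory and 14.8, 19.0 and 18.8 CPM in thymus (log2 fold change 1.28 ± 0.14). Satb1, a genome organiser needed in the thymus, had 2021, 1987, 1971 and 1959 CPM in memory and 3038, 2870 and 3221 CPM in thymus (-0.62 ± 0.06, edgeR adjusted p = 8.14e-12). Of 15 tested BCL2 family and death genes of 22, 3 rose and 1 fell (median -0.02). Bbc3, the gene of the killer protein PUMA, had 13, 16.8, 12.1 and 12.1 CPM in memory and 2.80, 4.71 and 4.05 CPM in thymus (1.76 ± 0.23), while Bmf, another BH3-only gene, had 0.0777, 0.185, 0.110 and 0.358 CPM in memory and 1.86, 2.44 and 1.98 CPM in thymus (-3.46 ± 0.57). Bcl2, the survival gene of IL-7 signalling, had 180, 205, 214 and 184 CPM in memory and 152, 187 and 166 CPM in thymus and did not pass the test (0.21 ± 0.17).

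In glycolysis 4 of 21 tested genes rose and 3 fell of 24 listed (median 0.09), no larger a share than over all tested genes. The muscle isoform of phosphofructokinase, Pfkm, had 25.4, 28.4, 31.7 and 33.2 CPM in memory and 51.5, 55.9 and 56.3 CPM in thymus (-0.88 ± 0.11). The platelet isoform, Pfkp, had 33.2, 40.2, 42.1 and 37.5 CPM in memory and 22.1, 23.3 and 20.2 CPM in thymus (0.80 ± 0.10), so the isoforms of this enzyme moved in opposite directions. In fatty acid oxidation 7 of 22 tested genes rose and 3 fell of 25 (median 0.22), and 3 to 4 rose without thymus library 2 or memory library 1 or 3. Acsl1, an acyl-CoA synthetase, rose by 1.06 ± 0.27, with 2.49, 2.22, 2.63 and 2.69 CPM in memory and 0.932, 1.28 and 1.29 CPM in thymus. In cholesterol synthesis and handling 3 of 19 tested genes rose and 6 fell of 25 (median 0.02). The isoforms of the cholesterol esterifying enzyme parted here too, with Soat2 at 3.73, 8.31, 9.22 and 5.29 CPM in memory and 0.399, 0.232 and 0.345 CPM in thymus (4.37 ± 0.34), and Soat1 at 22.3, 24.4, 25.4 and 25.6 CPM in memory and 33.2, 42.7 and 42.2 CPM in thymus (-0.70 ± 0.12). The cholesterol exporter Abca1 fell by 1.68 ± 0.26.

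Ribosome biogenesis genes, all 26 tested, included 10 that rose by small steps and 1 that fell (median 0.23). Npm1, nucleophosmin, had 817, 694, 767 and 766 CPM in memory and 538, 438 and 471 CPM in thymus (log2 fold change 0.66 ± 0.12). The gene that fell, Mycn, had 2 counts in memory, both in library 3, and 35 in thymus, and its log2 fold change was -4.04 ± 0.85, or -6.34 without that library. Of 22 heat shock genes, 5 rose and 1 fell (median 0.00), with 3 rising without thymus library 2 or 3 and 9 with the replicate number as a block. Bag3, a co-chaperone, led with 17.9, 14.9, 22.9 and 21.7 CPM in memory and 1.60, 1.86 and 1.98 CPM in thymus (3.38 ± 0.39). Of 26 inhibitory and costimulatory receptors, 15 were tested, 3 rose and 2 fell (median 0.24). Nt5e, the gene of CD73, which makes adenosine, had 32.5, 45.2, 35.2 and 34.3 CPM in memory and 6.79, 5.99 and 5.86 CPM in thymus (2.58 ± 0.18). Cd200 fell by 2.34 ± 0.43, and Pdcd1, Lag3, Havcr2 and Tigit had at most 4 counts over either group.

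**Figure D4:**
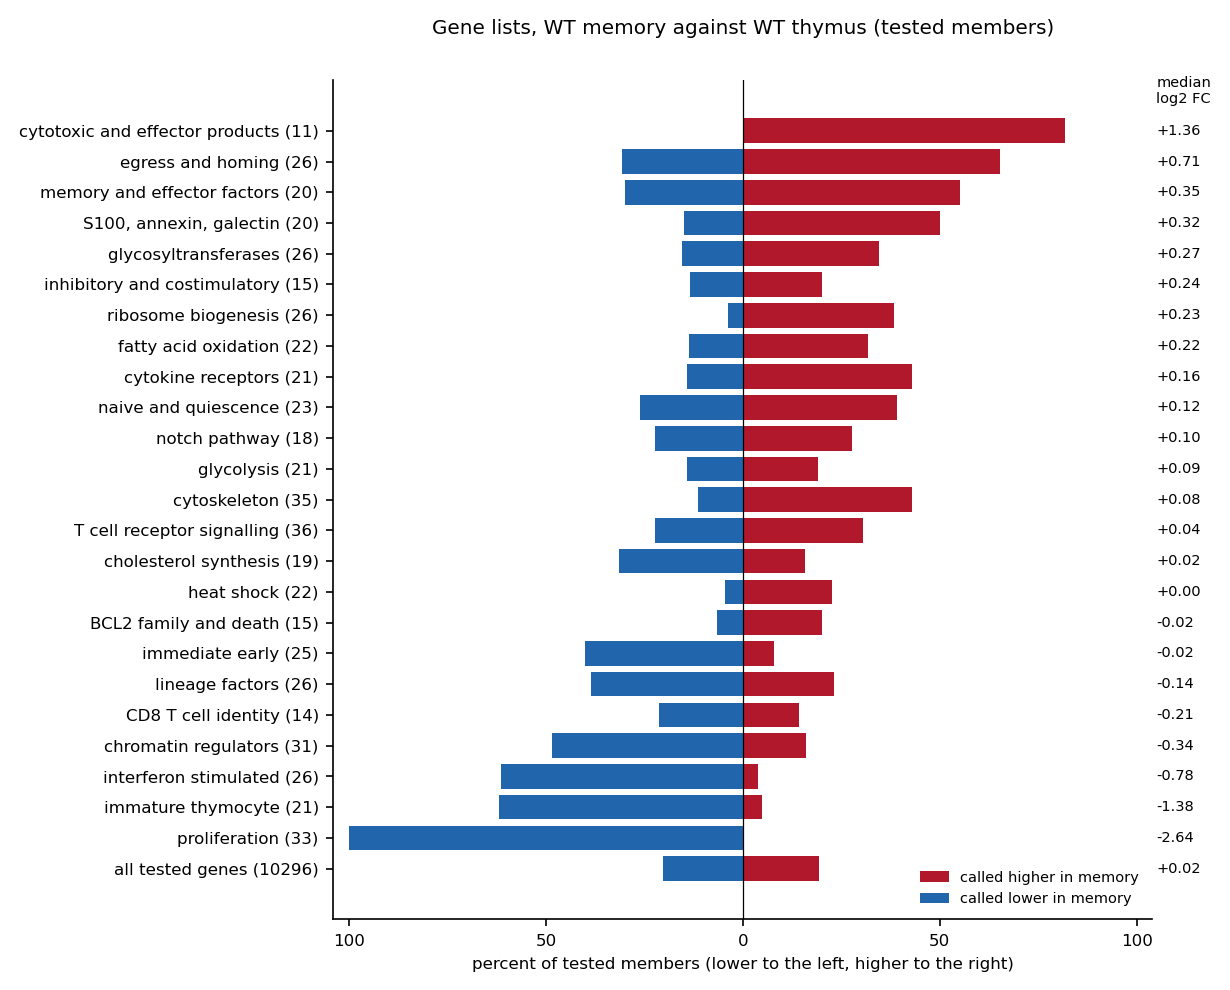
Percent of tested members called higher (red, to the right) and lower (blue, to the left) in WT memory than in WT thymus for each gene list with at least 10 tested members other than those of other cell types, and for all 10296 tested genes at the bottom. The number tested stands in brackets, and the median log2 fold change of tested members at the right runs from 1.36 for cytotoxic and effector products to -2.64 for proliferation, against 0.02 for all tested genes.

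Naive spleen cells come from the same organ as memory cells, and were compared with the same libraries, so these comparisons share samples and their values are only set side by side. Against thymus, 3319 genes (32.2%) were called in naive cells, 1575 higher (15.3%) and 1744 lower (16.9%). Memory against naive cells gave 1551 (15.1%), 791 higher (7.68%) and 760 lower (7.38%). Tbx21 had a log2 fold change of 6.14 in memory over thymus, 2.80 in naive over thymus and 3.34 in memory over naive. For Top2a, chosen after its values were seen, the changes were -3.66, -4.35 and 0.69, and for Ifit1 -2.80, -2.31 and -0.49. Klf6 had 1.80, 1.81 and -0.01, and Nt5e 2.58, 2.48 and 0.10. Runx2 had 3.44, 0.72 and 2.71, Il2rb 2.03, 0.03 and 2.0, and Itgb1 2.02, -0.23 and 2.25. Top2a, Ifit1, Klf6 and Nt5e did not pass the test between memory and naive cells, which does not show that they were equal there, and Runx2, Il2rb and Itgb1 were higher in memory than in either of the other subsets. Bhlhe40 and Vim had another form: their levels in naive cells, 0.528 ± 0.418 and 1013 ± 53.5 CPM (SD, n = 4), were below both memory and thymus.

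The comparison of memory with thymus in Het mice used none of the same libraries. There, 4608 genes (44.8%) were called, 2283 higher (22.2%) and 2325 lower (22.6%). Of the 4078 genes called in WT, 4040 had the same sign in Het, 3438 were also called in Het in the same direction, which is 84.3% of the WT calls and 74.6% of the Het calls, and 0 were called in the opposite direction. Across the 10296 tested genes, which are not independent replicates, Pearson's r of the log2 fold changes was 0.914 and Spearman's rho 0.842. Tbx21 had 157, 201, 189 and 172 CPM in Het memory and 1.09, 3.47, 5.24 and 2.72 CPM in Het thymus, and its log2 fold change was 5.83 ± 0.32. Ptprf had 0.534, 0.160, 0.246 and 0.104 CPM in Het memory and 30.2, 37.1, 33.5 and 37.1 CPM in Het thymus (-6.87 ± 0.28). Ifit1 had 3.29, 11, 4.56 and 3.86 CPM in Het memory and 39.9, 40.4, 28.4 and 49.9 CPM in Het thymus (-2.89 ± 0.32). In a direct test of the Het minus WT difference in fold change, edgeR called 0 of 10296 genes (0%), DESeq2 called 0, and 381 had an unadjusted p under 0.05. That count does not show that the changes were equal.

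**Figure D5:**
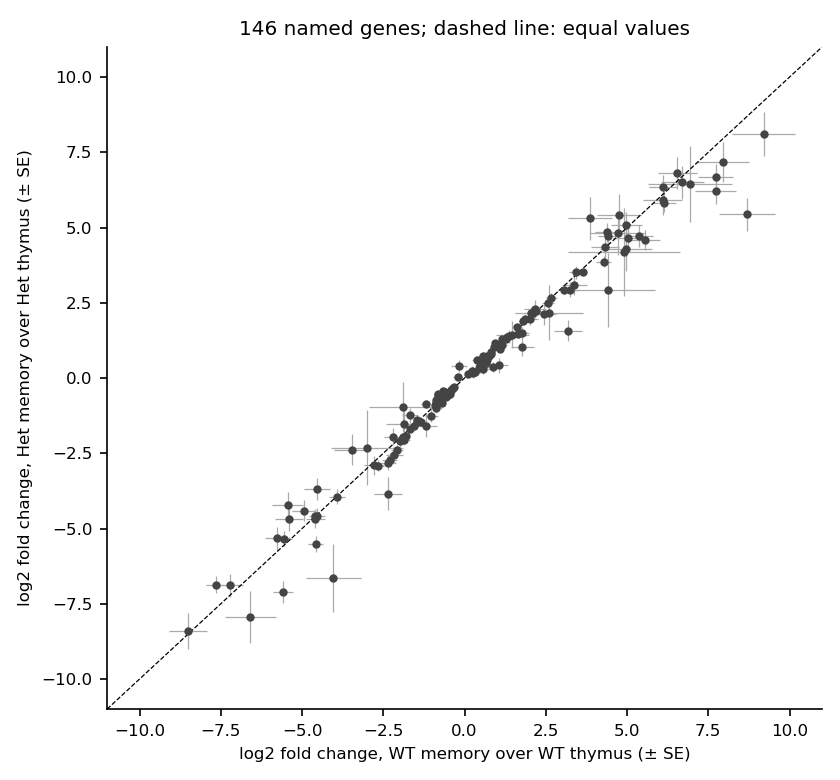
Log2 fold change of memory over thymus in Het mice (vertical axis) against that in WT mice (horizontal axis) for 146 named genes, with standard errors as bars and a dashed line where both are equal. The points follow the line from Notch3 at -8.51 in WT and -8.42 in Het to Gas7 at 9.20 in WT and 8.11 in Het.

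In KO mice the change from thymus to memory differed from WT for 954 genes (9.27%), 425 with a higher (4.13%) and 529 with a lower (5.14%) log2 fold change in KO. Among the genes of this account, Tbx21 differed by -2.49 ± 0.46 on the log2 scale, with 214, 172, 246 and 213 CPM in KO memory and 15.1, 19.4, 17.4 and 14.7 CPM in KO thymus. Its level in KO thymus was thus above each of the 3 WT thymus libraries. Ikzf2 differed by 2.42 ± 0.32, with 219, 279, 243 and 196 CPM in KO memory and 643, 710, 673 and 644 CPM in KO thymus.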

How the data were processed

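Gene counts as deposited by the authors came from total RNA of sorted cells, made into libraries with the TruSeq Stranded mRNA kit and read as single reads of 65 bases, per the labels' protocols. The submitters' processing notes name TopHat, TopHat2 2.1.0, HTSeq 0.9.1 and GRCm38, also called mm10. Which annotation was counted, and whether strand was used, is not given in the sources used here. Reads of overlapping or antisense genes may be mixed. Of 52636 genes in the table, 52489 matched the annotation by ID, and symbols that 2 gene records share, such as Aldoa, are named by ID and left out of the lists.

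The 35 libraries, all groups together, were fitted with edgeR 4.0.16 (R 4.3.3, TMM scaling, filterByExpr, robust quasi-likelihood test, Benjamini-Hochberg adjustment over 10296 genes). Levels are TMM-scaled CPM. Unless said to be an SD, ± is an SE of a log2 fold change derived from the test. It is the size of the change over the square root of edgeR's F statistic. For genes with a near-empty group, such as Cxcr3, Il18rap, Notch3 and Gas7, it can be too small and is no interval. The procedure was tested on simulated data. Intervals and floors cover counting error only. Named genes were a set of key genes, the 12 highest and 12 lowest called genes with no overlap and an average log2 CPM no lower than 1, and the 4 called members of each of 33 lists with the lowest adjusted p, and some of these genes are not reported here. The comparison, members and lists were chosen with earlier results of these data known. Promoters are from RefSeq (GRCm38.p6), which held 7806 of the tested genes. A T-box motif, AGGTGTGA or TCACACCT, was searched as well. It was in 0.871% of tested promoters, 0.957% of those called higher and 1.03% of those called lower. Of 9 tested cytotoxic and effector products with a promoter, 1 held it. Alternatives were RLE scaling, other filters, non-robust estimates, centring, a replicate block, sex as a covariate, the compared libraries alone, DESeq2 1.42.0, a fold threshold, and each library left out.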

Additional observations from a re-analysis of the deposited data

Results flagged for a closer look

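In 5 of 146 named genes, 1 WT memory library stood apart from the other 3 by Dixon's criterion, and chance alone flags about 1 in 20 groups, or 7.3 of 146. Mcm5 was at 22.9 CPM in memory library 3, Nr4a3 at 9.11 CPM in memory library 3 and Cxcr3 at 9.59 CPM in memory library 4. Mycn in memory library 3 (0.219 CPM) and Notch3 in memory library 4 (0.0896 CPM) were set apart by 1 or 2 counts where the other memory libraries had none.

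The change from thymus to memory differed between KO and WT mice, by edgeR's interaction test, for 19 of the 53 key genes and genes of largest change. Over all 10296 tested genes it differed for 954 (9.27%). Key genes were chosen with earlier results of these data known, and the genes of largest change by their WT change. The KO minus WT difference subtracts that same WT change, so the choice itself favours differences toward 0. How far it did so was not tested. On the log2 scale the KO minus WT difference was -2.49 for Tbx21 (edgeR adjusted p = 5.80e-04), -1.49 for Eomes and -3.71 for Cxcr3, genes high in memory, and -1.95 for Ppm1j. Genes called lower in WT memory differed in both directions. Upward were Jup by 3.71 (edgeR adjusted p = 5.59e-13), Dnajc6 by 3.15, Id2 by 2.49, Ikzf2 by 2.42 and Sox4 by 1.76. Plxnd1 by 1.39, Gria3 by 1.32 and Satb1 by 0.48 were upward too. Itgae, Id3 and Cd6 differed downward, by -1.74, -1.13 and -0.90. Runx3, called higher in WT memory at the margin, differed by 0.67. The other differences, of genes not called in WT, were 1.36 for Bhlhe40, 1.18 for Myb and -0.85 for Cd5.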

How the results depend on the processing

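The 4078 calls became 4075 with RLE scaling, 4092 with DESeq2, 3938 with no filter, 4037 with a stricter filter, 4106 without robust estimates, 4011 with centring, 4116 with sex as a covariate and 4328 from the compared libraries alone. With a log2 fold change of at least 1 in size required, 1591 calls were left, 725 higher and 866 lower. Leaving out each library in turn gave 3465 to 3878 calls, 1626 to 1885 higher and 1820 to 1993 lower, and leaving out memory libraries 3 and 4 together, chosen after seeing the data for their B cell sums, gave 3319. Leave-one-out counts ran from 2715 to 3155 for naive against thymus, 1234 to 1494 for memory against naive, 4184 to 4490 in Het, 702 to 898 for KO minus WT and 0 throughout for Het minus WT. No named gene reversed, and 132 of the 144 called under the naming rule kept the call in all 17 alternatives other than the fold threshold, which removes every call under 1 in size. Those that lost it at least once were Col1a1, Mef2c, Csf1r, Cd6, Zeb2, Itga4, Bcl2l11, Thy1, Foxp3, Sox13, Runx3 and H2-Ab1. Of 680 list counts, 18 moved by over 1.5 times, B cell genes called higher among them, 7 as reported, 3 without memory library 4 or thymus library 2 and 4 without thymus library 3 or from the compared libraries alone.

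Replicate numbers recur across groups. In Het and in KO, thymus, naive and memory libraries of the same number had the same sex. The same held between WT naive and WT memory libraries. Same-numbered libraries could thus share an animal, which the labels do not say, and the main tests treat all libraries as independent. Deviations of same-numbered WT memory and thymus libraries correlated at 0.181, 0.168 and -0.118, so these values do not show that the numbers pair WT memory with WT thymus. Memory library 3 was female (299 Xist counts) and thymus library 3 male (0 Xist counts), so libraries numbered 3 cannot come from the same animal. The replicate block treats them as a pair, so it is no check of a true pairing. With the replicate block, 4152 genes were called. Memory against naive then gave 1765 calls in place of 1551, and KO minus WT gave 1121 in place of 954.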

Other observations

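Lists of other cell types and of sample identity had few tested members. Called higher and lower were 7 and 0 of 11 tested B cell genes of 20 (median 3.02), 2 and 0 of 3 myeloid and dendritic genes of 20, 1 and 3 of 5 CD4 and regulatory T cell genes of 10, and 1 and 2 of 6 gamma-delta and innate-like genes of 12. No erythroid gene passed of 5 tested (median 7.57, or 5.05 with genes at 0 counts in thymus set at their bound), and none of 1 natural killer gene or 5 sex-linked genes. Of 2 stromal genes, Col1a1 fell. Of 14 CD8 identity genes, 2 rose and 3 fell (median -0.21), and 5 fell with DESeq2 or without memory library 1. Their part in the other results was not tested.

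Some gene families outside the lists were counted after their values were seen. Of 45 tested histone genes of the clusters, whose transcripts mostly serve DNA replication, 42 fell in memory and none rose, with a median log2 fold change of -2.79. Hist1h1b had 1.85 ± 1.43 CPM in memory and 40.6 ± 4.57 CPM in thymus (SD, n = 4 and 3). These genes are near-identical copies among which reads could be split, and whether the mRNA library kit captured their transcripts alike in both groups was not tested. Of 29 kinesin genes, the motors of spindle and transport, 5 rose and 16 fell (median -0.69). Of 15 semaphorin and plexin genes, which guide migrating cells, 4 rose and 8 fell (median -0.97). Of 19 class I MHC genes, 8 rose and 5 fell (median 0.28), again a family with near-identical members. Potassium channel genes were even, with 5 of 24 higher and 6 lower. Solute carriers had 35 of 181 higher and 29 lower, long noncoding RNA genes 8 of 75 higher and 5 lower, and T cell receptor variable segments 0 of 9 higher and 2 lower. The share called over all tested genes, 39.6%, is the background for each of these counts.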
